A study of Rattus norvegicus with 6 samples.

Results

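The nuclear genes for subunits and assembly factors of the mitochondrial respiratory chain were followed in cultured tendon stem/progenitor cells of the rat, which can form tendon tissue. They were chosen by name from protein-coding rows outside the mitochondrial chromosome, and then by level, so the members were selected on their mean FPKM over the 6 libraries, which had to be at least 1. FPKM counts fragments per kilobase of a gene, here with the authors' scaling for depth. Of 33300 genes in the deposited table, 94 carried such a name and 86 of these, under 84 gene names, passed the level threshold, among 12733 genes of any kind that did. Complex I held 41 of the 86 by name, complex II 4, complex III 10, complex IV 13 and complex V 18.

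Culture lasted 7 days in F12 medium, with N-acetyl-L-cysteine at 500 uM (NAC, 3 libraries) or in F12 medium alone (Control, 3 libraries). The additive is an antioxidant from which cells can make glutathione. The labels list the tissue as tendon, call the cells mesenchymal stem cells and give tenogenic differentiation for every sample, and they do not say whether libraries within a group are separate cultures. The p-values therefore measure only the spread between these samples, which may be technical. The libraries held 12487215 to 14941949 reads, with 14.5 ± 0.745 M in NAC and 13.3 ± 0.796 M in Control (SD, n = 3 each).

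The respiratory chain sits in the inner mitochondrial membrane. Complexes I and II feed electrons from NADH and succinate to ubiquinone, complex III passes them to cytochrome c, and complex IV hands them to oxygen. Complexes I, III and IV pump protons, and complex V, the ATP synthase, lets them flow back to make ATP. The mitochondrial genome encodes a few central subunits of every complex but complex II, and the nucleus encodes the rest. Background from cell biology links many of these nuclear genes to the transcription factors NRF1, GABP (NRF-2, of the ETS family) and YY1.

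Promoter sequences are shown for the members on which the comparison turned, Atp5d, Ndufs8 and Ndufb7, and for a pair of the most abundant members, Cox4i1 and Ndufa4l2. They are RefSeq promoter windows of the rat build GRCr8, 250 bases before to 50 after each start, read along the gene's own strand. Capitals mark matches to the motifs searched for NRF1 (GCGCNTGCG), GABP (the ETS letters CCGGAAG) and YY1 (AAGATGGCG) on either strand. The Atp5d window, listed in RefSeq as Atp5f1d, lies on the minus strand at chr7:10214301-10214600 and holds an NRF1 match. Those of Ndufs8 at chr1:210573649-210573948 and Ndufb7 at chr19:41477242-41477541, both on the minus strand, hold an ETS match each. The Cox4i1 window, on the plus strand at chr19:65630133-65630432, has a pair of ETS matches, and that of Ndufa4l2, on the plus strand at chr7:65241919-65242218, has no match to any of the 3 motifs.
Atp5d: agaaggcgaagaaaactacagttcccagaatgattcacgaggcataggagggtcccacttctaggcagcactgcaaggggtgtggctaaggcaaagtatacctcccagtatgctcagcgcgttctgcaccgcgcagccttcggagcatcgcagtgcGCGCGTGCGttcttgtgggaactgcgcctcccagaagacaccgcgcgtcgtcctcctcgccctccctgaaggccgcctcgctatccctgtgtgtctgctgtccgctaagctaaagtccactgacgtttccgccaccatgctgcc
Ndufs8: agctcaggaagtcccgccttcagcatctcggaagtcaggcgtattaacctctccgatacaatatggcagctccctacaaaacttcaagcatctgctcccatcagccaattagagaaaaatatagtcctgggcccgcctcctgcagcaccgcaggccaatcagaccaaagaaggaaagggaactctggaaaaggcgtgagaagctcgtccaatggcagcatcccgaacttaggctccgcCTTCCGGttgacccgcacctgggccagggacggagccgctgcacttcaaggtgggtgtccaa
Ndufb7: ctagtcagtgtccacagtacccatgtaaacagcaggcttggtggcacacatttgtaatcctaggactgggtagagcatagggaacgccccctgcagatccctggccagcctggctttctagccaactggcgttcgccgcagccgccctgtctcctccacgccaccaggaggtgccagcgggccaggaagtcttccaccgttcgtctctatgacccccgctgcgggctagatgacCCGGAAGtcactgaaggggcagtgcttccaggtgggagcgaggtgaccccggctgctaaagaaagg
Cox4i1: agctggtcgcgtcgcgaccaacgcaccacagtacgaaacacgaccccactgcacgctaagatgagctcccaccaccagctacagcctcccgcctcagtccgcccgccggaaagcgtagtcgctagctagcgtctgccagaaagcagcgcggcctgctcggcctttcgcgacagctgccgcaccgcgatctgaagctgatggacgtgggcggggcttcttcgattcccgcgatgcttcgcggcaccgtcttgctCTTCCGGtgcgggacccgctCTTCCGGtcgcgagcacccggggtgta
Ndufa4l2: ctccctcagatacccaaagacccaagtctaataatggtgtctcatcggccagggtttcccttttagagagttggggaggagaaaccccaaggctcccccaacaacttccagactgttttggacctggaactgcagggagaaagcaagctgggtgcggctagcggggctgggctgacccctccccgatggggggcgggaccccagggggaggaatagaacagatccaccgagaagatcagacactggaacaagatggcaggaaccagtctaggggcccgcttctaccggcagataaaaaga

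Windows were matched for 73 of the 84 member names, 15 of them through an older name. An NRF1 match lay in 20 of the 73 (27.4%), against 8.08% of the 19005 protein-coding promoters in the table. The ETS letters were in 22 members (30.1%), against 11.2% of all promoters, and the YY1 letters were in 9 (12.3%), against 2.29%. At least 1 of these 3 motifs was in 43 members (58.9%), against 19.1% of all promoters. The GC box GGGCGG that Sp1 can bind was about as frequent in members (42.5%) as in all promoters (43.1%). CCAAT was in 30.1% of members against 38.4% of all promoters, and TATAAA in 5.48% against 13.1%. Member windows were also richer in CpG, with a median of 20 CpG against 12 in all promoters and a median GC content of 57.7% against 55.3%. These shares describe letters in a window. The members had passed the level threshold, while the full promoter set was not filtered by level, so the sets differ in that way too. Members with an NRF1 match had a median log2 difference, NAC minus Control, of 0.059 and those without one 0.039, and members with and without the ETS letters had 0.016 and 0.042. Those with and without the YY1 letters had 0.069 and 0.040.

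**Figure D1:**
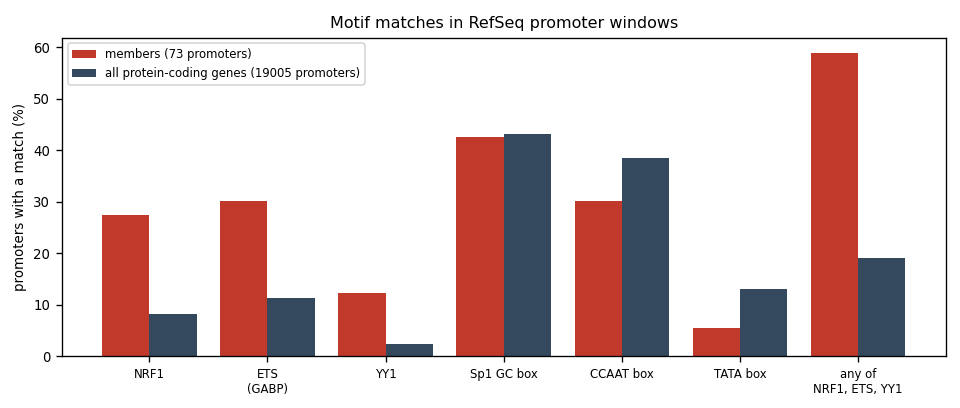
Share of RefSeq promoter windows (percent, vertical axis) that hold each motif, in the 73 matched members and in all 19005 protein-coding promoters. The NRF1, ETS and YY1 letters were more frequent in members (27.4%, 30.1% and 12.3%) than in all promoters (8.08%, 11.2% and 2.29%), while the Sp1 box was not (42.5% and 43.1%). Only the members were filtered by level.

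The comparison of NAC with Control addresses the effect of the antioxidant on gene expression; the series title names tenogenic differentiation and integrin signalling as the study's subject. Transcripts of the nuclear respiratory chain genes stayed close to their Control levels. With limma on log2(FPKM + 1) and Benjamini-Hochberg adjustment over all 12733 tested genes, 2 members rose (Atp5d and Ndufs8), 1 fell (Ndufb7) and 83 were not called at an adjusted p under 0.05. Those 3 of 86 stand beside 8.8% of all tested genes called in either direction, 6.08% higher and 2.72% lower. An unadjusted p under 0.05 was reached by 7 of the 86 members, against 26.3% of all tested genes. The NAC and Control libraries did not overlap in 14 members, 9 with all NAC values above and 5 with all below, where 32.6% of all tested genes had such a separation.

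The median log2 difference of the 86 members was 0.025, with quartiles of -0.019 and 0.077, while all tested genes had a median of -0.0063 and quartiles of -0.12 and 0.12. Positive differences were seen in 53 members and negative ones in 33. The 95% interval of the difference lay within 1.5-fold in either direction for 82 of 86 members (95.3%), against 82.5% of all tested genes. Among genes with a mean of 20 to 400 FPKM, where most members lie, these shares were 97.2% of 71 members and 92.5% of 3586 genes. The 4 members whose interval was wider were Ndufa1, Ndufaf2, Cox5b and 1 of the 2 rows named Atp5f1. Members were not measured more tightly than other genes of that level: the median SD within groups on the log2 scale was 0.080 in members and 0.066 in all genes of 20 to 400 FPKM.

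**Figure D2:**
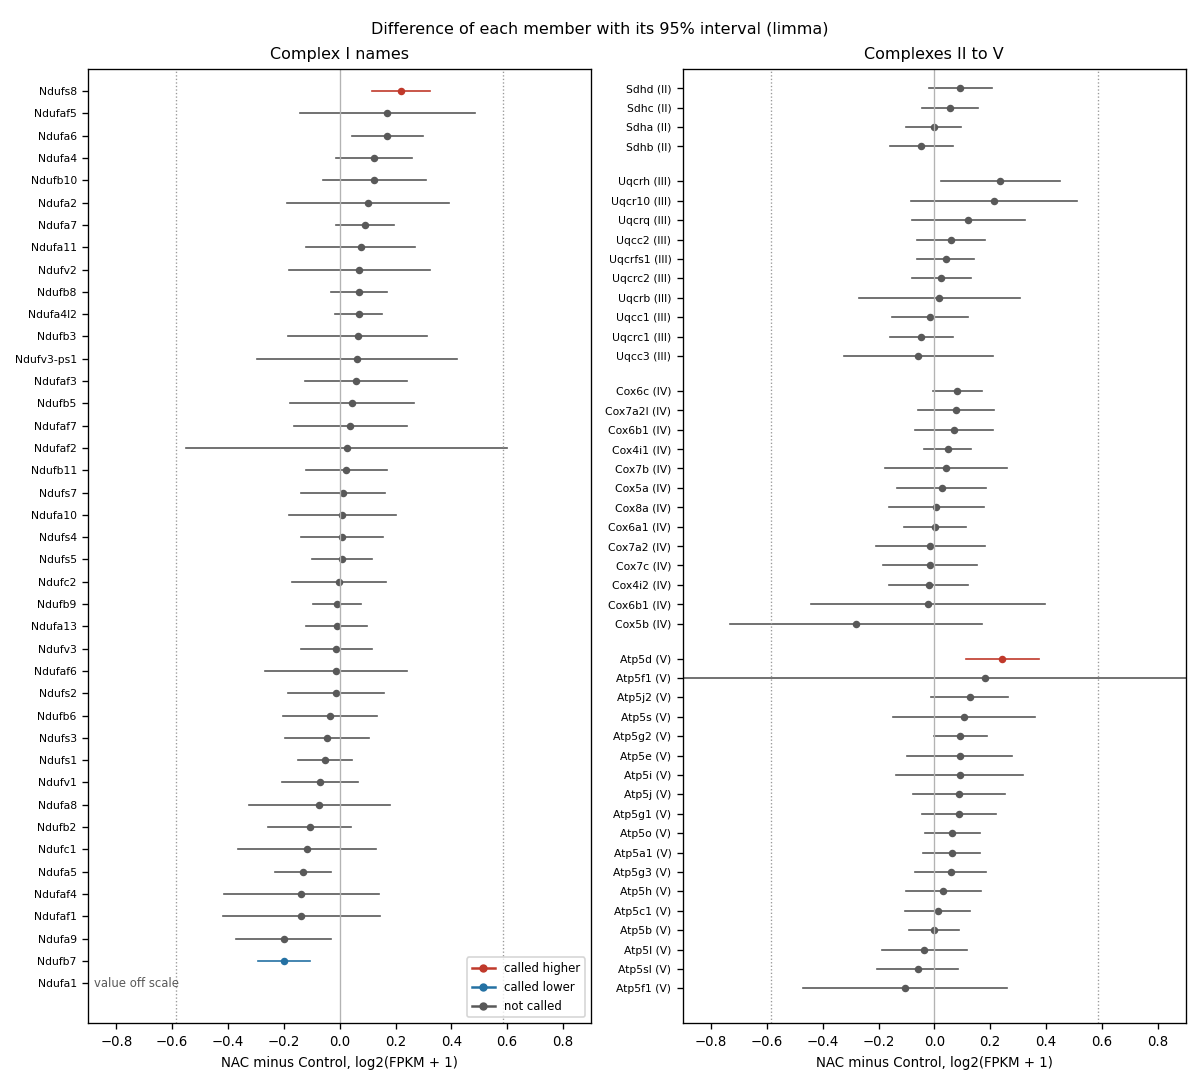
Difference of each of the 86 members, NAC minus Control in log2(FPKM + 1), with its 95% interval from limma, ordered by size within each complex; dotted lines mark 1.5-fold. Most intervals lie within the dotted lines, with Atp5d and Ndufs8 called higher and Ndufb7 called lower; Ndufa1 is off the scale and the interval of 1 Atp5f1 row is clipped by the axis.

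The sign of such small differences depended on the scaling. The authors' scaling holds the median difference of all genes near 0, but rescaled to library totals that median was -0.16 and that of the members -0.14, so that relative to all genes the members stood at 0.016. On that scale 20 of the 86 members were lower and 0 higher, beside 29.2% of all tested genes lower and 3.67% higher. Quantile normalization gave 1 member higher (Ndufs8) and 3 lower (Ndufb7, Ndufa5 and Atp5b), beside 4.45% of all genes higher and 3.2% lower. The members took 0.478%, 0.476% and 0.501% of the reads in NAC and 0.535%, 0.548% and 0.527% in Control. Every NAC share lay below every Control share. Their summed FPKM overlapped between the groups, at 6047, 5993 and 6288 in NAC and 6025, 6216 and 5914 in Control. In bulk RNA, fewer cells of a type and less RNA per cell cannot be told apart.

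Complex I, the NADH dehydrogenase, couples electron entry from NADH to proton pumping. Its 7 nuclear core subunits include those that hold the flavin and the iron-sulfur clusters, and 1 of them rose. Among all tested genes, 6.08% were called higher and 2.72% lower. Ndufs8, which holds iron-sulfur clusters in the arm that reaches into the matrix, had 41.2, 44.1 and 44.1 FPKM in NAC and 36.8, 37.8 and 36.2 FPKM in Control. All NAC libraries were above all Control libraries. The mean was 43.2 ± 1.66 FPKM in NAC and 36.9 ± 0.827 FPKM in Control (SD, n = 3 each), a log2 difference of 0.22 (SE 0.0435, limma adjusted p = 0.0301). The call held without Control 2 and was lost when any other single library was left out. It was also lost with library totals, with limma voom, with eBayes without trend and with the replicate number as a block. The limma adjusted p ranged from 0.0227 to 0.415 over all settings tried. The other 6 core subunits had differences between -0.070 (Ndufv1, which binds NADH) and 0.071 (Ndufv2), and none of them was called. Ndufs1, the largest iron-sulfur subunit, averaged 27.6 ± 0.746 FPKM in NAC and 28.7 ± 0.449 FPKM in Control, with a difference of -0.053 (adjusted p = 0.455).

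The accessory subunits surround the core and take part in its assembly and stability. Of 24 tested, 1 fell, 0 rose, and their median log2 difference was 0.0019. Among all tested genes, 2.72% were called lower and 6.08% higher. Ndufb7, a subunit of the membrane arm, had 63.7, 63.0 and 61.5 FPKM in NAC and 73.2, 73.9 and 69.6 FPKM in Control. Its NAC values all lay below its Control values, with means of 62.7 ± 1.11 and 72.2 ± 2.28 FPKM (SD, n = 3 each) and a log2 difference of -0.20 (SE 0.0387, limma adjusted p = 0.0277). This call held without Control 2 or Control 3 and was lost without Control 1 or any single NAC library. It was also lost with limma voom, with eBayes without trend and with the replicate number as a block (adjusted p 0.00296 to 0.0956 over all settings). The most abundant accessory subunits among rows with a member's name differed little. Ndufa13, also known as GRIM-19, averaged 94.5 ± 4.15 FPKM in NAC and 95.2 ± 3.08 FPKM in Control, and Ndufb8 averaged 89.0 ± 1.69 and 84.8 ± 3.63 FPKM. Their adjusted p-values were 0.910 and 0.349.

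A further 3 accessory subunits, named after their values were seen, had an unadjusted p under 0.05 without a call. Ndufa6 had 69.2, 71.2 and 68.9 FPKM in NAC and 58.2, 66.4 and 61.4 FPKM in Control, with a log2 difference of 0.17 (adjusted p = 0.101). Ndufa5 and Ndufa9 lay the other way, at -0.13 (adjusted p = 0.104) and -0.20 (adjusted p = 0.137). Among the 41 complex I members, the NAC values were all below Control in 5 (Ndufb7, Ndufa5, Ndufa9, Ndufb2 and Ndufs1) and all above in 4 (Ndufs8, Ndufa6, Ndufa7 and Ndufa4l2). That is a smaller share than the 32.6% of all tested genes whose groups did not overlap. The 7 assembly factors, Ndufaf1 to Ndufaf7, were present at 1.65 to 11.4 FPKM on average. None of them was called, where 8.8% of all tested genes were. Complex I as a whole had 22 members above 0 and 19 below, with a median difference of 0.0080. Its rows include 3 placed there by name alone, Ndufa4, Ndufa4l2 and Ndufv3-ps1. The last has a symbol of pseudogene form and held 16 to 26 reads per library.

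A pair of complex I names belongs in part elsewhere: Ndufa4 was first assigned to complex I and later found in complex IV, and Ndufa4l2 is its paralog, known as a target of the hypoxia-inducible factor HIF-1. Ndufa4l2 was the most abundant row with a complex I name, at 282, 279 and 293 FPKM in NAC and 274, 265 and 276 FPKM in Control. The NAC values were all higher, but the log2 difference of 0.068 was not called (adjusted p = 0.279). Ndufa4 averaged 76.2 ± 2.30 FPKM in NAC and 69.9 ± 5.01 FPKM in Control (0.12, adjusted p = 0.228). Ndufa4l2 thus made up 79.3%, 78.2% and 79.1% of the FPKM of the pair in NAC and 80.6%, 77.8% and 80.2% in Control, which overlapped (exact two-sided permutation test p = 0.6). In all, 6 such isoform shares were compared, and 0.1 is the smallest p that 3 against 3 libraries allow.

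**Figure D3:**
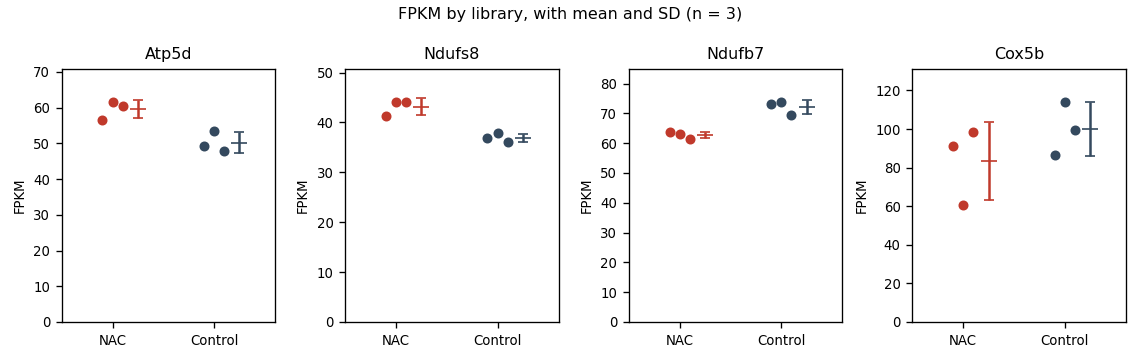
FPKM of Atp5d, Ndufs8, Ndufb7 and Cox5b in each library (points) with the group mean and SD (bars beside the points, n = 3 each), NAC left and Control right, on axes that start at 0. Atp5d and Ndufs8 have all NAC points above Control and Ndufb7 all below, while in Cox5b the NAC points span 60.5 to 98.6 FPKM and overlap with Control.

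Ndufa1, a small membrane-arm subunit encoded on the X chromosome, had the lowest difference of all 12733 tested genes and was not called. It had 4.84, 3.11 and 3.35 FPKM in NAC and 146, 1.84 and 99.8 FPKM in Control. Control 1 and Control 3 were high, and Control 2 lay below every NAC library, so the groups overlapped. The reads behind these values were 14, 9 and 9 in NAC and 428, 5 and 312 in Control, on a deposited gene length of 213 bases. The log2 difference was -2.89 (SE 1.40, 95% interval -6.21 to 0.44, limma adjusted p = 0.245), and without Control 2 it was -4.69 with an adjusted p of 0.000828. No other tested gene had both Control 1 and Control 3 more than 5-fold above all other libraries. RefSeq lists a rat Ndufa1 pseudogene, and 43 of the 86 members have such an entry; where reads from near-identical copies were placed was not tested. The summed FPKM of complex I moved with this gene, at 1916 ± 26.9 in NAC and 1972 ± 54.1 in Control with it, and 1913 ± 27.3 in NAC and 1889 ± 43.2 in Control without it (SD, n = 3 each).

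Complex II, succinate dehydrogenase, is the enzyme shared with the citric acid cycle. Its 4 subunits were all measured and none called, where 8.8% of all tested genes were. Sdha, the flavoprotein that oxidises succinate, had 59.7, 61.5 and 63.8 FPKM in NAC and 63.2, 62.0 and 59.9 FPKM in Control, a log2 difference of -0.0020 (adjusted p = 0.982). Sdhb, the iron-sulfur subunit, averaged 54.4 ± 0.348 FPKM in NAC and 56.2 ± 3.09 FPKM in Control (SD, n = 3 each). The membrane anchors had the higher values in NAC: Sdhc averaged 76.2 ± 1.66 FPKM in NAC and 73.2 ± 2.96 FPKM in Control, and Sdhd 38.4 ± 1.89 and 35.9 ± 0.688 FPKM. Only Sdhd of the 4 had no overlap between groups, and its difference of 0.093 was not called (adjusted p = 0.263).

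In complex III, the cytochrome bc1 complex, none of 10 members was called and every member overlapped between the groups. Among all tested genes, 8.8% were called and 32.6% did not overlap. Uqcrfs1, the Rieske iron-sulfur protein, averaged 71.5 ± 3.22 FPKM in NAC and 69.4 ± 0.964 FPKM in Control (0.041, adjusted p = 0.595). The 4 small subunits, Uqcrh, Uqcrq, Uqcr10 and Uqcrb, all had positive differences, with a median of 0.17. A pair of rows described as complex III subunits, without a member's name, had negative ones. LOC686442 averaged 138 FPKM over the 6 libraries, with a difference of -0.12, and LOC685596, described as similar to the binding protein that Uqcrb encodes, averaged 37.9 FPKM, with -0.019; the Uqcrb row averaged 9.24 FPKM. Uqcrh, the hinge protein near cytochrome c1, had the highest of them at 0.24 (SE 0.0893, adjusted p = 0.154), with 95.4, 104 and 110.6 FPKM in NAC and 88.2, 97.2 and 78.0 FPKM in Control. Here the lowest NAC library lay below the highest Control library. Uqcrq averaged 61.3 ± 6.97 FPKM in NAC and 56.0 ± 3.25 FPKM in Control. The lowest difference was that of Uqcc3, an assembly factor of the complex, at -0.057, and Control 2 was its highest library at 35.6 FPKM.

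Complex IV, cytochrome c oxidase, had the most abundant members and no call among 13, where 8.8% of all tested genes were called. Cox6a1, the widely expressed form of subunit 6a, led with 338 ± 13.8 FPKM in NAC and 338 ± 13.6 FPKM in Control (SD, n = 3 each; log2 difference 0.0032, adjusted p = 0.975). Cox4i1, the main form of subunit 4, had 292, 299 and 293 FPKM in NAC and 285, 293 and 277 FPKM in Control. The groups overlapped by a narrow margin and the difference was 0.048 (adjusted p = 0.441). Cox8a averaged 242 ± 9.86 FPKM in NAC and 241 ± 23.0 FPKM in Control. Cox6c had the highest difference of the complex, 0.083, with 171 ± 3.60 FPKM in NAC against 161 ± 4.66 FPKM in Control, and no overlap (adjusted p = 0.211).

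Cox5b, a zinc-binding subunit on the matrix side, had the lowest difference of complex IV and a wide interval. It had 91.1, 60.5 and 98.6 FPKM in NAC and 86.4, 114 and 99.7 FPKM in Control. NAC 2 was low and Control 2 high, and the log2 difference of -0.28 was not called (adjusted p = 0.395). Leaving out each library in turn gave differences from -0.42 to -0.069.

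Complex IV also has subunits with alternative forms that differ between tissues. Cox4i2, the form of subunit 4 best known from lung, averaged 59.1 ± 4.58 FPKM in NAC and 59.8 ± 0.924 FPKM in Control, and made up 16.9%, 15.4% and 17.8% of the FPKM of both forms in NAC and 17.1%, 16.9% and 18.0% in Control. These shares overlapped (exact permutation test p = 0.4). Cox7a2 and Cox7a2l, the second a factor of supercomplex assembly, averaged 83.2 ± 9.45 and 94.3 ± 5.98 FPKM in NAC and 83.8 ± 3.26 and 89.2 ± 3.67 FPKM in Control. Muscle and testis forms were below the threshold: Cox6a2, the heart and skeletal muscle form, had a mean of 0.744 FPKM, Cox6b2 0.500 and Cox8b 0.151. Cox8c and Cox7b2 were at 0 in all 6 libraries, as was the row named Cox6c1. LOC100910772, a row without a member's name that is described as similar to subunit 7A1, averaged 0.171 FPKM.

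Cox6a2 was the row just below the threshold, at 0.930, 0.930 and 1.34 FPKM in NAC and 0.153, 0.827 and 0.287 FPKM in Control, which rest on 1 to 8 reads per library. Its share of the subunit 6a pair was 0.277%, 0.284% and 0.376% in NAC and 0.0468%, 0.234% and 0.0861% in Control. The groups did not overlap, at the smallest p the design allows (exact permutation test p = 0.1, 0.6 after adjustment over the 6 shares). The summed level of 10 skeletal muscle markers, Cox6a2 among them, ranged from 30.1 to 31.8 FPKM in NAC and from 25.8 to 29.0 FPKM in Control, most of it from Tnnt3, with Myf5 and Pax7 at 0; their part in the Cox6a2 values was not tested. The other rows below the threshold were a second Ndufa13 row at 0.423 FPKM and Ndufb4l1 at 0.

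**Figure D4:**
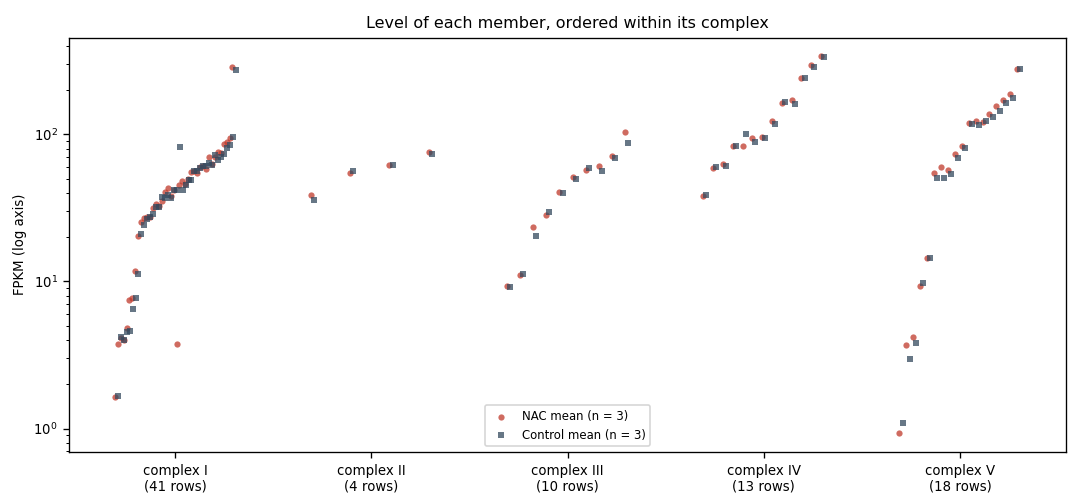
Mean FPKM of each of the 86 members (log axis) in NAC (circles) and in Control (squares, n = 3 each), ordered within each complex by mean level. The pairs nearly coincide at every level from about 1 FPKM to the 338 FPKM of Cox6a1; the pair far apart in complex I is Ndufa1, at 3.77 FPKM in NAC and 82.5 FPKM in Control.

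Complex V, the ATP synthase, consists of the catalytic F1 head and the proton-conducting Fo part, joined by stalks. It had 1 member called, beside 8.8% of all tested genes in either direction, and 14 of its 18 members had positive differences. Their median was 0.077, where all tested genes had -0.0063 and those of 20 to 400 FPKM had 0.016. Library totals and quantile normalization each turned the complex V median negative. The 18 include Atp5s and Atp5sl, placed here by name alone, and both rows of Atp5f1. Atp5d, which encodes the delta subunit of the central stalk of F1, rose. It had 56.6, 61.6 and 60.4 FPKM in NAC and 49.4, 53.4 and 47.8 FPKM in Control. The libraries of the groups did not overlap, with means of 59.6 ± 2.60 FPKM in NAC and 50.2 ± 2.85 FPKM in Control (SD, n = 3 each) and a log2 difference of 0.24 (SE 0.0551, limma adjusted p = 0.0431). As for Ndufs8, Control 2 was the only library whose omission kept the call. The call also ended with no filter, library totals, quantile normalization, eBayes without trend and the replicate number as a block. The limma adjusted p ranged from 0.0159 to 0.313 over all settings.

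The catalytic subunits of F1 were not called. Atp5b, the beta subunit that makes ATP, had 278, 273 and 288 FPKM in NAC and 276, 289 and 274 FPKM in Control, a log2 difference of -0.0016 (95% interval -0.093 to 0.089, adjusted p = 0.985). Atp5a1, the alpha subunit, averaged 171 ± 4.49 FPKM in NAC and 164 ± 6.68 FPKM in Control (0.061, adjusted p = 0.408). Of the Fo and stalk rows, 9 of 11 had positive differences and none was called, where 8.8% of all tested genes were. Subunit c, which forms the rotating ring, is encoded by Atp5g1, Atp5g2 and Atp5g3, whose proteins are the same once mature. Atp5g2 gave 47.5 ± 0.565% of their summed FPKM in NAC and 47.1 ± 0.324% in Control, with 189 ± 5.34 FPKM in NAC against 177 ± 5.68 FPKM in Control (0.093, adjusted p = 0.194). Atp5g1 gave 18.3 ± 0.706% and 18.2 ± 0.739%, and Atp5g3 34.2 ± 0.769% and 34.7 ± 0.484% (exact permutation tests, p = 0.2 to 0.8 over the 3 shares). Atpif1, the inhibitor of ATP hydrolysis by the synthase, is not taken by the name rule. It averaged 149 ± 6.30 FPKM in NAC and 161 ± 13.0 FPKM in Control (-0.10, adjusted p = 0.367).

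Atp5f1, the peripheral stalk subunit b, was listed in a pair of rows on chromosome 2 with the same deposited length of 2063 bases. In the first row the reads were 29, 247 and 33 in NAC and 41, 179 and 19 in Control, so that NAC 2 and Control 2 were high in both groups. Only 4 tested genes had these 2 libraries more than 3-fold above all others. The second row held 24, 24 and 28 reads in NAC and 40, 26 and 26 in Control, and with a mean of 1.01 FPKM it was the member just above the threshold. Cox6b1 also had a pair of rows, on chromosomes 1 and 2, with 123 ± 5.48 and 38.2 ± 7.93 FPKM in NAC and 117 ± 7.73 and 38.7 ± 7.23 FPKM in Control. How the authors' counting divided reads between rows of the same name is not stated in any source used here. These levels are therefore uncertain.

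**Figure D5:**
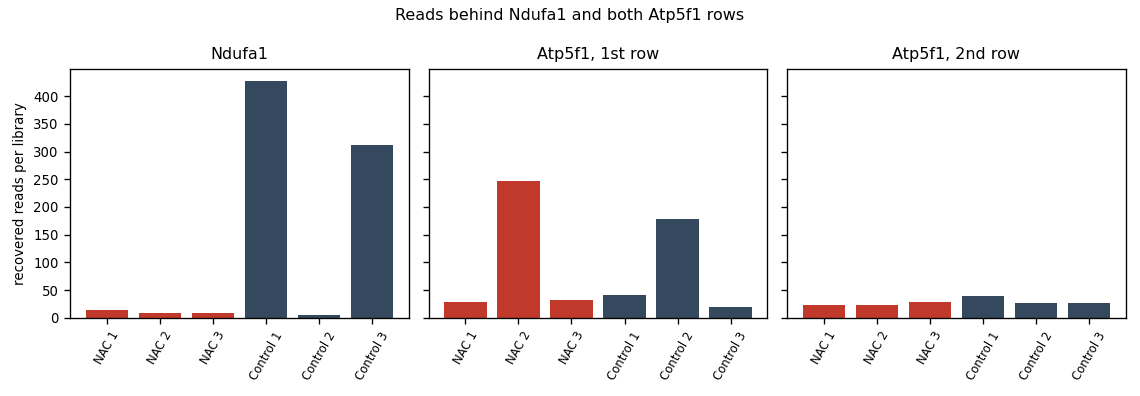
Reads per library (vertical axis, recovered from FPKM and gene length) for Ndufa1 and for both Atp5f1 rows, NAC libraries left and Control libraries right in each panel. Ndufa1 is high in Control 1 and Control 3 (428 and 312 reads) and low elsewhere, and the first Atp5f1 row is high in NAC 2 and Control 2 (247 and 179 reads).

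Other genes of the pathway were counted from lists drawn up with earlier results of these data known. Of 42 tested assembly factors and cytochrome c genes, 1 of them the member Atp5sl, 0 rose and 0 fell, with a median difference of -0.064; of all tested genes 8.8% were called. Cycs, which encodes cytochrome c itself, averaged 25.7 ± 1.56 FPKM in NAC and 27.8 ± 1.31 FPKM in Control, and Cyc1, the cytochrome c1 of complex III, averaged 70.2 ± 1.74 and 67.4 ± 3.41 FPKM. None of 15 tested regulators of mitochondrial biogenesis was called (median -0.066), beside the same 8.8% of all genes. The lowest difference was that of Tfb2m, a mitochondrial transcription factor, at -0.40 (adjusted p = 0.0510). Polrmt, the mitochondrial RNA polymerase, had -0.19 (adjusted p = 0.132), and the coactivator Pprc1 had -0.15 (adjusted p = 0.161). In these 3 of the 15 regulators, named after their values were seen, all NAC libraries lay below all Control libraries. The groups did not overlap, in either direction, in 32.6% of all tested genes. Nrf1, whose motif is described above, averaged 6.02 ± 0.391 FPKM in NAC and 6.001 ± 0.415 FPKM in Control, Gabpa 6.71 ± 0.440 and 6.98 ± 0.549 FPKM, and Yy1 31.8 ± 1.71 and 33.4 ± 2.40 FPKM. The coactivators Ppargc1a and Ppargc1b were below 1 FPKM and not tested. Of 16 genes of the outer membrane and cristae, 0 were called (median -0.019).

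Of 17 citric acid cycle and pyruvate dehydrogenase genes, 1 rose and 1 fell, with a median of 0.027. Of all tested genes, 8.8% were called in either direction. Idh2, the NADP-dependent isocitrate dehydrogenase of mitochondria, averaged 67.0 ± 0.217 FPKM in NAC and 46.7 ± 1.81 FPKM in Control (log2 difference 0.51, adjusted p = 0.00116). Sucla2, a subunit of the ATP-forming succinyl-CoA ligase, averaged 33.7 ± 0.815 FPKM in NAC and 38.7 ± 1.65 FPKM in Control (-0.19, adjusted p = 0.0473).

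The mitochondrially encoded partner subunits stood apart from the nuclear ones in level difference. Of 12 tested, 9 rose and 0 fell, beside 6.08% and 2.72% of all tested genes. Their differences were 0.099 to 0.69, with a median of 0.49. On library totals that median was 0.31, beside -0.14 for the nuclear members, and after quantile normalization it was 0.22, beside -0.017. Their summed FPKM over that of the 86 nuclear members was 3.47, 3.39 and 3.20 in NAC and 2.75, 2.58 and 2.70 in Control. Every NAC ratio was above every Control ratio, with the nuclear sum at 6109 ± 157 FPKM in NAC and 6052 ± 153 FPKM in Control (SD, n = 3 each). Both sums come from the same libraries, so a single factor per library cancels in the ratio. Quantile normalization is not such a factor, and the ratio after it was not computed.

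The tissue label was set against marker lists. All 14 tendon and fibroblast markers passed the level threshold. The 6 that rose were Col1a1, Col1a2, Col3a1, Dcn, Bgn and Tnc, where 6.08% of all tested genes were called higher. The other 8 were not called and had differences of either sign. Among these were Scx (log2 difference -0.094), Mkx (-0.38) and Tnmd (0.56). Of 6 macrophage and leukocyte markers, Cd68 and Lyz2 passed it, at 4.33 and 5.27 FPKM in NAC and 5.18 and 5.59 FPKM in Control, and Ptprc was at 0 in all libraries. Of 4 endothelial markers Cdh5 was at 0, and Kdr, Tek and Vwf lay between 0.0769 and 0.390 FPKM in either group. The summed level of 6 smooth muscle and pericyte markers ranged from 689 to 822 FPKM in NAC and from 850 to 1049 FPKM in Control, most of it from Acta2 and Tagln. Myh11 fell, 1 of 5 tested on this list, beside 2.72% of all tested genes called lower. Cspg4 had the opposite sign, with 21.3 ± 0.440 FPKM in NAC and 18.3 ± 1.92 FPKM in Control (log2 difference 0.21, adjusted p = 0.127). Of 5 chondrocyte markers, Sox9, Acan and Comp passed the threshold. The list summed to 12.5 to 13.9 FPKM in NAC and 11.9 to 15.6 FPKM in Control, most of it from Sox9. Sox9 (log2 difference -0.11) and Acan (-0.18) had negative differences. Comp had all NAC libraries above all Control libraries (0.64, limma adjusted p = 0.0529). The 5 adipocyte markers, of which 2 passed, summed to 1119 to 1213 FPKM in NAC and 880 to 1151 FPKM in Control. Nearly all of this came from the 2 that passed, since the others averaged below 1 FPKM. None of the chondrocyte or adipocyte markers was called, where 8.8% of all tested genes were. The part of these marker values in the 3 member calls was not tested.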

How the data were processed

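RNA sequencing was done on 6 libraries, 3 with NAC and 3 Control. RNA came from RNeasy columns and libraries from SMARTer reagents, per the labels' protocols. The authors' deposited values are FPKM per gene in 1 table; no source used here states the aligner, the counting tool or the strand setting. Builds named in the submitters' processing notes are GRCm38 and mm10, both of mouse, but the gene identifiers are rat ones, so no coordinates of the deposited table are printed. The columns headed N were taken as Control by elimination.

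Reads were recovered from deposited FPKM and gene length, whose products were whole multiples of a step (tolerance 0.01). The authors' divisor, over the sum of these reads, stood at a factor of 0.916 ± 0.00812 in NAC and 1.03 ± 0.0122 in Control (SD, n = 3 each). Genes reaching a mean of 1 FPKM were tested on log2(FPKM + 1), a scale that understates changes of low genes, with limma 3.58.1 in R 4.3.3 (lmFit, eBayes with trend, group as the only term, two-sided) and Benjamini-Hochberg adjustment over all 12733 genes. The procedure was tested on simulated data. Shares of isoforms were compared with exact permutation tests. Named were called members, in each complex the 3 most abundant members and those with the highest and lowest difference, complex II, isoform sets and rows next to the threshold; genes beyond that are named for a pattern seen in their values. Alternatives were no filter, a minimum mean of 5 FPKM, a pseudocount of 0.1, library totals, quantile normalization, eBayes without trend, the replicate number as a block, limma voom on the recovered reads and leaving out each library. Promoter windows came from RefSeq (GRCr8), matched by symbol or older name. The members, lists and tests were chosen with earlier results of these data known. Python 3.11.15, numpy 2.4.6, pandas 2.3.3, scipy 1.17.1 and matplotlib 3.10.9 were used. Mitochondrially encoded cytochrome b was not analysed here.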

Additional observations from a re-analysis of the deposited data

How the results depend on the processing

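Counts of called members were small and depended on the setting. The 2 higher members became 1 with no filter, with quantile normalization and with limma voom, and 0 with library totals, with eBayes without trend and with the replicate number as a block. The 1 lower member became 20 with library totals, 3 with quantile normalization, and 0 with voom, without trend and with the block. Leaving out 1 library gave 0 to 3 higher and 0 to 2 lower. Atp5d and Ndufs8 were called without Control 2 and lost without any other library; Ndufb7 was called without Control 2 or Control 3 and lost without the others. Counting the reported fit, Ndufb7 was called in 8 of 15 settings (adjusted p 0.00296 to 0.0956), Ndufs8 in 6 (0.0227 to 0.415) and Atp5d in 5 (0.0159 to 0.313). Their directions held in all of them. The replicate numbers share no stated source, and deviations of same-numbered libraries correlated at 0.063, 0.059 and -0.050, so they were not treated as pairs.

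Library totals moved the median difference of all members to -0.14, of complex I to -0.16, II to -0.14, III to -0.14, IV to -0.17 and V to -0.096. Quantile normalization gave -0.017 for all members, -0.016 for complex I, -0.020 for II, 0.018 for III, -0.068 for IV and -0.00045 for V. Leaving out 1 library gave medians of -0.0065 to 0.048 for all members, -0.026 to 0.014 for complex I, 0.0059 to 0.052 for II, 0.028 to 0.054 for III, -0.025 to 0.069 for IV and 0.035 to 0.093 for V.

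Of the named genes that were not called, 15 turned negative with library totals: Ndufb8 -0.10, Ndufa4 -0.048, Ndufa4l2 -0.11, Sdhc -0.11, Sdhd -0.077, Uqcrfs1 -0.13, Uqcrq -0.049, Cox7a2l -0.095, Cox4i1 -0.13, Cox6a1 -0.17, Cox6b1 (chromosome 1) -0.10, Cox6c -0.091, Cox8a -0.17, Atp5a1 -0.11 and Atp5g2 -0.080. With quantile normalization 9 did: Ndufa4l2 -0.092, Uqcrfs1 -0.0043, Cox4i1 -0.11, Cox6a1 -0.18, Cox6b1 (chromosome 1) -0.031, Cox6c -0.034, Cox8a -0.13, Atp5a1 -0.044 and Atp5g2 -0.018. Leaving out 1 library changed the sign of Atp5b (-0.022 to 0.022), Atp5f1 (-0.18 to 0.0030), Cox4i2 (-0.075 to 0.035), Cox6a1 (-0.029 to 0.036), Cox6b1 on chromosome 2 (-0.17 to 0.12), Cox7a2 (-0.095 to 0.067), Cox8a (-0.053 to 0.080), Ndufa13 (-0.046 to 0.013), Sdha (-0.027 to 0.021) and Uqcc3 (-0.15 to 0.079). The cause was not tested. With 3 libraries a group, the 95% interval reached a median of 0.15 to either side of the log2 difference, which limits what could be seen.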

Other observations

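Rows without a member's name can still be described in the deposited table as respiratory chain subunits. There were 20 such protein-coding rows, 9 of them with a mean of at least 1 FPKM. None of these 9 was called, where 8.8% of all tested genes were. The most abundant, LOC688963, described as similar to a subunit of the beta subcomplex of complex I, had 133, 146 and 147 FPKM in NAC and 147, 159 and 135 FPKM in Control (log2 difference -0.046, limma adjusted p = 0.712). LOC686442, described as similar to a subunit of complex III, had 126, 133 and 137 FPKM in NAC and 139, 147 and 145 FPKM in Control. Its groups did not overlap, and the difference of -0.12 was not called (adjusted p = 0.139).

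A pair of rows described as iron-sulfur protein 6 of complex I each stood high in 1 NAC library. LOC100912599 had 0.461, 4.38 and 39.3 FPKM in NAC and 1.02, 1.48 and 1.28 FPKM in Control. LOC679739 had 14.2, 1.27 and 0.373 FPKM in NAC and 2.73, 0.860 and 0.640 FPKM in Control. NAC 3 was the highest library in one and NAC 1 in the other, and their adjusted p-values were 0.394 and 0.658.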
